A study of Mus musculus with 10 samples.

Results

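Denervated and contralateral tibialis anterior (TA) muscle, day 3 after denervation, were set against each other on 2 spotted arrays with 2 colours, 1 of them with reversed labelling, out of 10 arrays in all. Both columns titled as day 3 were taken as deposited, with no sign turned. A positive value stands for more RNA in the denervated muscle, per the labels. The animals were CD1 mice, 3 months old. Group by group, the arrays held the contralateral TA of such mice against the denervated TA of the time 0 group or against the TA taken 1, 3, 7 or 14 days after denervation, with 2 arrays in each group. Every array thus carried its own contralateral muscle, from the same kind of animal, as the reference. The labels give no other agent or allele, and do not say how the nerve was interrupted, how many animals went into an extract, or whether the 2 arrays of a time point shared extracts. SDs and p-values therefore show how far arrays spread, and that spread may be technical. Levels are relative to the bulk of RNA on an array, and in whole muscle fewer cells of a type and less RNA per cell cannot be told apart.

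A skeletal muscle fibre fires an action potential when its motor nerve releases acetylcholine, and voltage-gated sodium channels carry that potential along the membrane and into the transverse tubules. At the triad, where a tubule meets the sarcoplasmic reticulum, the signal releases calcium and the sarcomeres contract. A fibre that loses its nerve is known to stop contracting, to alter its ion channels and its acetylcholine receptors, and to lose protein through the proteasome and autophagy. TA is a fast-twitch hindlimb muscle.

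Each array held 9216 spots, read as 2304 probes of 4 spots. The median over the 4 spots stood for a probe, and the mean over probes for a gene. This gave 2300 features, among them 89 genes with a single symbol in the platform annotation, on 93 probes. The other features were unnamed, so the account by gene covers a small share of the array. Medians over the probes lay between -0.15 and 0.09 on the 10 arrays, and at 0.00 and 0.03 on the day 3 arrays. Of the fast-fibre markers, 3 of 16 were among the named genes (Neb, Trdn and Scn4b), and they entered as denervated-to-contralateral ratios, which do not show a level. Markers of slow fibres, immune cells, fibroblasts, endothelium, nerve and Schwann cells and erythrocytes had 0 members among the named genes, so the labelled tissue could not be checked against them.

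At day 3, Scn4b was the named gene with the clearest difference: its RNA fell in denervated muscle to 0.441 times the contralateral level. Larp4b, Pcdh19 and Tmem263 rose, to 1.57, 1.54 and 1.37 times the contralateral level. These 4 of the 89 named genes, 3 higher and 1 lower, had a limma adjusted p under 0.05. The background over the 2300 features was 7.96% (2.39% in the higher and 5.57% in the lower direction), and 4 of 89 is below it. The 3 higher calls were lost under most changes of the fit, whereas that of Scn4b was not. With a term for labelling added to the fit, the named calls were 0 higher and 2 lower (Scn4b and Gnas). Scn4b encodes the beta-4 subunit, which modulates voltage-gated sodium channels. Larp4b is a La-related protein that binds mRNA, Pcdh19 a protocadherin of cell adhesion, and Tmem263 a transmembrane protein.

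The promoters of these 4 genes are shown because they belong to every named gene that passed the test at day 3. Each runs from 250 bases before to 50 bases after the annotated start, from RefSeq on GRCm38.p6, 5′ to 3′ on the gene's strand. Larp4b lies at chr13:9093631-9093930 (+), Pcdh19 at chrX:133688944-133689243 (-), Tmem263 at chr10:85102377-85102676 (+) and Scn4b at chr9:45138374-45138673 (+). Capitals mark the E-box CANNTG and the CCAAT box, on either strand.
Scn4b: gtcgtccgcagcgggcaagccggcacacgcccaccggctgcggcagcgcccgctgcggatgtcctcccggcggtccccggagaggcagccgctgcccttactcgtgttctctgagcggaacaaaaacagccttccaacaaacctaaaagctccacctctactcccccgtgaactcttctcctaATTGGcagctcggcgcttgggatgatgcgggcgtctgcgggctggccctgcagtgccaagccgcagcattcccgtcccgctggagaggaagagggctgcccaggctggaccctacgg
Larp4b: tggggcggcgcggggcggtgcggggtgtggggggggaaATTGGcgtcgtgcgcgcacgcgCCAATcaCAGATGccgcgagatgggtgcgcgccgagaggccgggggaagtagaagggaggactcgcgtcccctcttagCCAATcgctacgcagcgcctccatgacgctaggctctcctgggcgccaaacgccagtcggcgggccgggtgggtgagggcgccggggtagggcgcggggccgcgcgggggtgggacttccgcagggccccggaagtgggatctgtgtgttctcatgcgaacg
Pcdh19: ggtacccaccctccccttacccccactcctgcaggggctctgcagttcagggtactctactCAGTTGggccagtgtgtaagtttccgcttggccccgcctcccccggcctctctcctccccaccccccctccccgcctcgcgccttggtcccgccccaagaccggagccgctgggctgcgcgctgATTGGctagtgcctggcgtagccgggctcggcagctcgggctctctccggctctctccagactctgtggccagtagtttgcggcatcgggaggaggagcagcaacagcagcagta
Tmem263: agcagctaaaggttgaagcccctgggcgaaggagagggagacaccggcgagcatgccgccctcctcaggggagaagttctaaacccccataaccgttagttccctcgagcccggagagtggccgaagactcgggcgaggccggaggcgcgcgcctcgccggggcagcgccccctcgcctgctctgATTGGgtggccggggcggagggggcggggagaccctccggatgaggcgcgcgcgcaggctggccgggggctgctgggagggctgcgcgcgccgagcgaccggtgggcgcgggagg

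The Scn4b window held 0 E-boxes and 1 CCAAT box, and the Tmem263 window the same numbers. The Pcdh19 window held 1 of each, and the Larp4b window 1 E-box and 3 CCAAT boxes. Of all 32851 promoter windows of this length in the table, 72.3% held an E-box and 37.4% a CCAAT box. TATAAA, in 13.6% of all windows on either strand, had 0 matches in the 4 windows. GC content ran from 66.3% for Scn4b to 73.3% for Tmem263, against a median of 52.7% over all windows. A match is a description of letters and no binding site, and a window without one says nothing about a factor.

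Scn4b stood at -1.13 on the first and -1.23 on the reverse-labelled day 3 array, a mean log2 ratio of -1.18 ± 0.07 (SD, n = 2 arrays; limma adjusted p = 0.00240). It was the lowest of the 89 named genes and the single one of at least 1 in size, a size that 6.83% of all features reached with one sign on both arrays (3.04% higher and 3.78% lower). At time 0 it stood at -0.06 and -0.08, so the day 3 and time 0 arrays did not overlap. Of all features, 29.1% likewise had both day 3 arrays below both time 0 arrays. The gene lies on chromosome 9 at 45138624-45154155 in GRCm38.p6.

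Scn4b was measured by 2 probes in different places of the array, and both were low. Both are annotated to one sequence record and were read on the same 2 arrays, so they are not independent. One gave -1.01 and -1.14 on the first and reverse arrays (adjusted p = 0.0225), the other -1.25 and -1.31 (adjusted p = 0.00605) when probes were fitted separately. Single spots ran from -1.56 to -0.58, so all 16 were below 0, as the plot of single spots for Scn4b and Trdn shows.

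**Figure D1:**
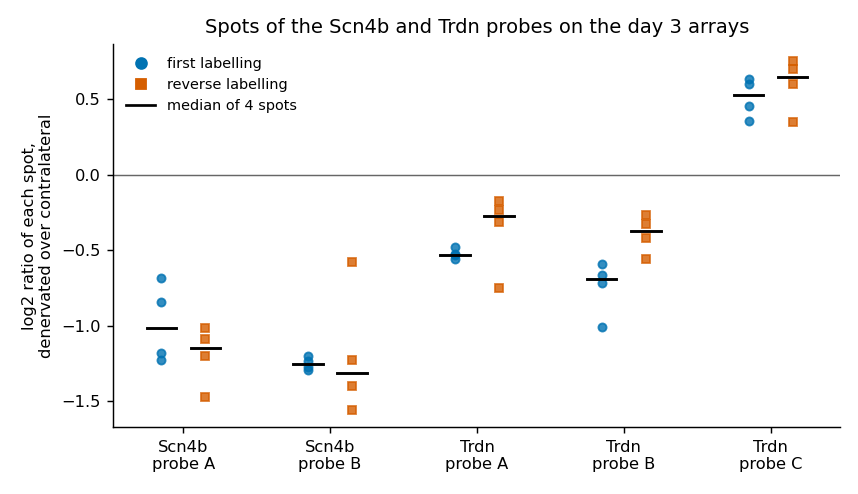
Log2 ratio of denervated over contralateral muscle for every single spot of the Scn4b and Trdn probes on the 2 day 3 arrays, with the median of each probe's 4 spots as a line. Both Scn4b probes lie below 0 on both arrays, while 2 Trdn probes lie below 0 and the third above.

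Larp4b reached 0.75 and 0.55 on the first and reverse arrays, a mean of 0.65 ± 0.14 (SD, n = 2; limma adjusted p = 0.0468). Pcdh19 reached 0.81 and 0.44, a mean of 0.63 ± 0.27 (adjusted p = 0.0419). Tmem263 reached 0.54 and 0.36, a mean of 0.45 ± 0.12 (adjusted p = 0.0491). All 3 genes were above 0 on both day 3 arrays and below 0 on both time 0 arrays, so the groups did not overlap. Of all features, 30.9% likewise had both day 3 arrays above both time 0 arrays. The calls of these 3 genes were close to the threshold. With 1 of the 10 arrays left out at a time, Larp4b passed in 2 of 10 fits, and Pcdh19 and Tmem263 in 0 of 10, with adjusted p up to 0.390, 0.396 and 0.417. Under 10 other changes of the processing or the fit they passed in 5, 4 and 3. Scn4b passed in all 10 fits with an array left out, with an adjusted p of at most 0.0343, and under 9 of the 10 other changes. It missed the threshold only where the fit held the arrays of time 0 and day 3 alone (adjusted p = 0.0684).

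Just outside the threshold stood Msi2 at 0.43 (adjusted p = 0.0505), Gnas at -0.66 (0.0589) and Gclm at 0.64 (0.0696). Msi2 encodes a Musashi RNA-binding protein, Gnas the stimulatory G protein alpha subunit that couples receptors to adenylyl cyclase, and Gclm the modifier subunit of glutamate-cysteine ligase in glutathione synthesis. Gnas was low on both arrays, at -0.62 and -0.71. With each of the 16 print blocks of the array centred on its median it was -0.78 (adjusted p = 0.0183), whereas Larp4b, Pcdh19 and Tmem263 missed the threshold there and Myl6 passed it at 0.44 (adjusted p = 0.0462).

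**Figure D2:**
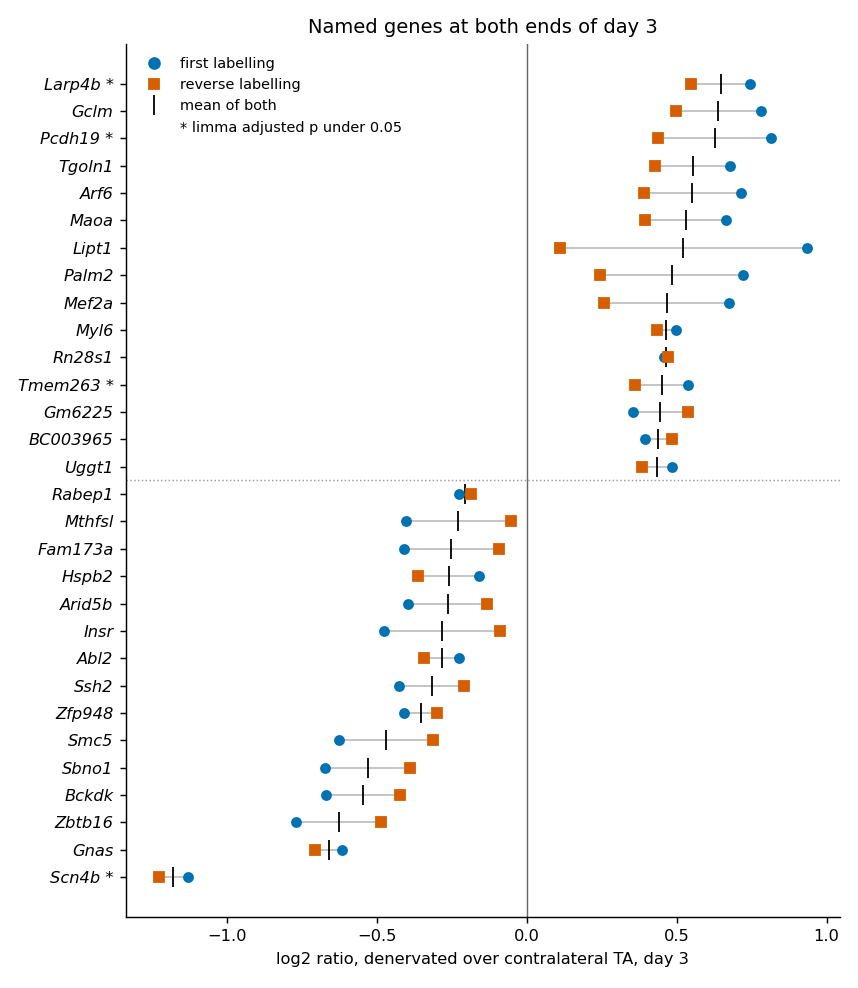
Day 3 log2 ratios of the 15 highest and 15 lowest named genes with one sign on both arrays. Points are the first and the reverse-labelled array, vertical ticks their mean, and asterisks mark a limma adjusted p under 0.05. Scn4b at -1.18 lies apart from the other low genes, while the high genes run from 0.43 to 0.65 without a gap.

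Of the 89 named genes, 58 had the same sign on both arrays, with 38 higher and 20 lower in denervated muscle, and 31 had opposite signs. That is 65.2% of the named genes, against 74.5% of all 2300 features (39.3% higher and 35.2% lower). The sign requirement was met at its edge by Herc1, at -0.01 and -0.00, and missed at its edge by Sh3glb1, at 0.33 and -0.00. The median day 3 value was 0.09 over the named genes and 0.06 over all features, and the quartiles of the named genes were -0.12 and 0.35. The 2 arrays correlated across genes with a Pearson coefficient of 0.63 and a Spearman coefficient of 0.58 over the 89 named genes, and 0.27 and 0.66 over all 2300 features. Genes on an array are not independent replicates, and both correlations are descriptions.

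**Figure D3:**
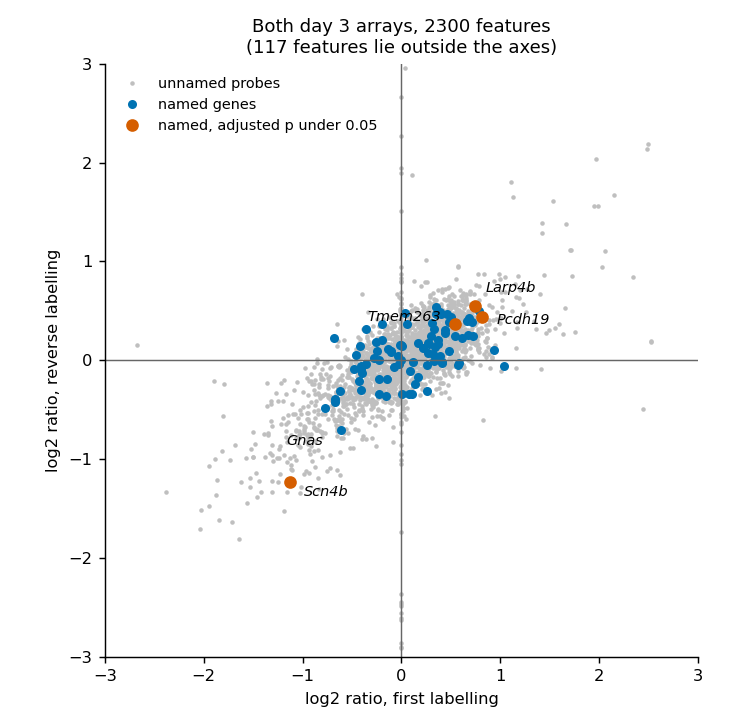
Log2 ratio on the first day 3 array (x) against the reverse-labelled one (y), for unnamed probes in grey and the 89 named genes in colour, with named genes past the limma threshold in orange (117 features lie outside the axes, and the grey vertical line of points at 0 holds probes at the repeated value of the first array). Scn4b lies low on both axes, and Larp4b and Pcdh19 lie at the upper edge of the named genes. Tmem263 lies inside that edge, below genes such as Gclm that did not pass.

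Among the 15 highest named genes with one sign, Larp4b, Gclm and Pcdh19 were followed by Tgoln1, a protein of the trans-Golgi network, at 0.68 and 0.43. Arf6, a small GTPase of endosome traffic and cortical actin, stood at 0.71 and 0.39, and Maoa, the monoamine oxidase A of the outer mitochondrial membrane, at 0.66 and 0.40. Each was above 0 on both arrays, and none of these 3 passed at day 3 (adjusted p 0.0823, 0.0712 and 0.0935).

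Lipt1, a lipoyltransferase, was uneven between arrays, at 0.94 and 0.11. Palm2, a paralemmin, stood at 0.72 and 0.25, but its single spots on one array spanned 7.57 log2 units. Mef2a, the myocyte enhancer factor 2A, stood at 0.68 and 0.26 (adjusted p = 0.210). For all 3 the first array was clearly the higher, so their means rest largely on it.

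Myl6, an essential myosin light chain of non-muscle and smooth-muscle myosin, was even between arrays at 0.50 and 0.43 (adjusted p = 0.120). Rn28s1, the 28S ribosomal RNA, stood at 0.46 and 0.47. At time 0 it stood at 1.48 and 0.09 (mean 0.79), so its day 3 values lay between those of the time 0 arrays. Uggt1, the glucosyltransferase that senses misfolded glycoproteins in the endoplasmic reticulum, stood at 0.48 and 0.38. Gm6225 (0.35 and 0.54) and BC003965 (0.39 and 0.48) completed the 15 with Tmem263.

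The 15 lowest named genes with one sign began with Scn4b and Gnas. Zbtb16, a zinc finger repressor of transcription, stood at -0.77 and -0.49. Bckdk, the kinase that inhibits the branched-chain ketoacid dehydrogenase complex and so the breakdown of branched-chain amino acids, stood at -0.67 and -0.43. Sbno1, a homologue of the fly gene strawberry notch, stood at -0.67 and -0.39. All 3 were below 0 on both arrays and missed the threshold (adjusted p 0.779, 0.0829 and 0.364). Zbtb16 varied widely elsewhere in the series, at -2.15 and 2.47 on the day 14 arrays.

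Smc5, a subunit of the SMC5/6 complex of DNA repair, stood at -0.63 and -0.31, and Zfp948, a zinc finger protein, at -0.41 and -0.30. Ssh2, a slingshot phosphatase that activates cofilin, stood at -0.43 and -0.21, and Abl2, a non-receptor tyrosine kinase, at -0.23 and -0.34. These 4 were below 0 on both arrays, with adjusted p from 0.124 for Zfp948 to 0.680 for Smc5.

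Arid5b, a DNA-binding chromatin regulator, stood at -0.40 and -0.13, and Hspb2, a small heat shock protein of muscle, at -0.16 and -0.36. Insr, the insulin receptor, stood at -0.48 and -0.09 with single spots 3.41 log2 units apart on one array. Fam173a (-0.41 and -0.09), Mthfsl (-0.40 and -0.05) and Rabep1 (-0.23 and -0.19) ended the 15. Rabep1, the Rab5 effector rabaptin, had single spots 8.21 units apart, so its median is poorly determined, and with the mean of the spots its value was 0.75. Palm2, Insr, Rabep1 and Btaf1 were the named genes with spots more than 2 units apart on a day 3 array.

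By role, membrane excitability and the triad held the largest single change. Of 27 genes of this list, 4 were measured, with 0 past the test upward and 1 downward (Scn4b). Of all features, 2.39% passed upward and 5.57% downward. The median of the list was -0.39, against 0.06 over all features. The list was drawn up with these values known, and its median depends on its members: Atp2b1, a plasma membrane calcium pump that is not on it, stood at 0.57 and -0.04. Gnas was the second low member. Jph1, a junctophilin that tethers the tubule to the sarcoplasmic reticulum, stood at 0.00 and 0.14. Triadin (Trdn), which anchors calsequestrin at the calcium release channel, gave -0.23 and 0.00 over its probes, and did not keep one sign.

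The Trdn average hid a split between its 3 probes. A pair of probes annotated to one sequence record stood at -0.53 and -0.27 (mean -0.40) and at -0.69 and -0.37 (mean -0.53). The third probe, annotated to another record, stood at 0.53 and 0.65 (mean 0.59). Each probe kept its sign on both arrays, and the third lay above the pair on each. None passed the test on its own, with adjusted p of 0.153, 0.119 and 0.104, and the difference between the records was not tested. The transcripts behind the records were not resolved here. At day 7 the pair gave means of -1.06 and -0.88 and the third probe -0.01. Purb, the third gene with several probes, had means of -0.27 and -0.07 at day 3, with both probes below 0 on both arrays.

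The Golgi and endosome list had all 4 of its measured members above 0 on both arrays, of 25 listed, with 2 past the test upward and 0 downward, and a median of 0.55, where 39.3% of all features were above 0 on both arrays and 2.39% passed upward. The members were Tgoln1, Arf6, Tmem263 and Pcdh19. The 2 that passed, Tmem263 and Pcdh19, are known as a transmembrane protein and an adhesion protein and not as parts of the traffic machinery. The list was drawn up with these values known and is not independent evidence of a direction. Other measured genes of membrane traffic, not on the list and named after their values were seen, were mixed. Trappc1 (0.30 and 0.24) and Snx13 (0.17 on both arrays) were above 0, Rabep1 (-0.23 and -0.19) was below, and Tmf1 (0.09 and -0.10) and Sh3glb1 (0.33 and -0.00) had opposite signs.

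RNA binding, processing and translation had 4 of 24 genes measured, with 1 past the test upward (Larp4b) and 0 downward. Of all features, 2.39% passed upward and 5.57% downward. The median of the list was 0.23, against 0.06 over all features. Ddx42, a DEAD-box helicase of splicing, stood at -0.35 and -0.04, and Sfpq, a splicing factor, at -0.14 and 0.12. Rn28s1 was the other high member. Msi2, outside the list, stood at 0.40 and 0.47.

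Among transcription and chromatin regulators 9 of 21 were measured, with 3 above 0 on both arrays, 5 below and 1 of opposite signs. Of them, 0 passed the test in either direction. Over all features 39.3% were above 0 on both arrays and 35.2% below, and 7.96% passed the test. The median of the list was -0.26. Mef2a, Irf1 (interferon regulatory factor 1, at 0.35 and 0.47) and Btaf1 (0.22 and 0.13) were the high members. Zbtb16, Sbno1, Smc5, Zfp948 and Arid5b were the low ones, and Chek1, the checkpoint kinase, stood at -0.24 and 0.10.

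Metabolism had 6 of 37 genes measured, with 3 above and 3 below 0 on both arrays, 0 past the test in either direction and a median of -0.01. Over all features 39.3% were above 0 on both arrays and 35.2% below, and 7.96% passed the test. Slc25a4, the ADP/ATP carrier of muscle mitochondria, stood at 0.44 and 0.27, and Gclm at 0.78 and 0.50. Nt5dc2 stood at 0.39 and 0.04. Bckdk, Insr and Mthfsl were the low members. The list was drawn up with these values known, and its median depends on its members. Maoa (0.66 and 0.40) and Lipt1 (0.94 and 0.11), which are not on it, were above 0 on both arrays. No full count of metabolic genes outside the list was made.

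Sarcomere, costamere and actin regulation had 6 of 44 genes measured, with 2 above, 3 below and 1 of opposite signs. Of them, 0 passed the test in either direction, and the median was -0.05. Over all features 39.3% were above 0 on both arrays and 35.2% below, and 7.96% passed the test. Nebulin (Neb), the ruler protein of the thin filament, stood at -0.68 on the first and 0.22 on the reverse array and so had no settled direction at day 3. Arhgef2, a guanine nucleotide exchange factor, stood at 0.33 and 0.31. Nisch, the integrin-binding protein nischarin (-0.02 and -0.03), and Parvb, the costamere protein beta-parvin (-0.07 on both arrays), lay close to 0.

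Few genes of the lists for the response to denervation were among the named genes. The neuromuscular junction list had 0 of 24 genes measured. Of the atrophy, proteasome, ubiquitin and autophagy list 1 of 32 was measured, the proteasome subunit Psmd1, at -0.00 and 0.15 (adjusted p = 0.840). Ubiquitin genes not on the list, named after their values were seen, were Usp40 (0.37 and 0.20), Nedd4l (0.04 and 0.47), Ube2d2a (0.58 and -0.02) and Herc1, of which 0 passed the test. Acetylcholine receptor subunits and the ubiquitin ligases Fbxo32 and Trim63 were not among the named genes.

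Against the time 0 arrays, which serve as the background of the comparison, 6 of the 89 named genes differed at day 3, with 5 higher and 1 lower. Over all features 6.96% differed (2.52% higher and 4.43% lower, 58 and 102 features, which became 18 and 67 with the arrays centred on their medians and 29 and 107 with the print blocks centred). Day 3 minus time 0 was -1.11 for Scn4b, 0.92 for Larp4b, 0.88 for Pcdh19 and 0.69 for Tmem263. It was 0.93 for Arf6 and 0.66 for Msi2. The limma adjusted p was 0.0217 for Scn4b and 0.0473 to 0.0494 for the other 5. Among these 6 only Scn4b was close to 0 at time 0, as an average over its probes. One probe stood there at -0.42 and 0.02 on the first and reverse arrays, the other at 0.31 and -0.17. With its probes fitted separately, the Scn4b call against time 0 was counted as lost, and whether 1 or both probes missed is not given here. In the same order, the probes had means of -0.20 and 0.07 at time 0 and of -1.28 and -1.08 at day 3. The other 5 genes were below 0 on both time 0 arrays, with means from -0.22 for Msi2 to -0.38 for Arf6. The differences of these 5 thus hold a time 0 part as well as a day 3 part. With 1 array left out at a time, Scn4b kept its call in 5 of 10 fits, Larp4b and Arf6 in 1 each, and Msi2, Pcdh19 and Tmem263 in 0.

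Time 0 itself had 0 of 2300 features past the threshold in limma, with 329 at an unadjusted p under 0.05. At day 3 the numbers were 183 and 609. The 183 became 36 without the first and 53 without the reverse day 3 array, and 87 without either day 1 array, which enters through the shared estimate of spread. The threshold was passed by 1 feature on day 1, by 267 on day 7 and by 329 on day 14. By arrays that did not overlap, 31 named genes (34.8%) lay above and 17 (19.1%) below their time 0 values at day 3. Over all features these shares were 30.9% and 29.1%.

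**Figure D4:**
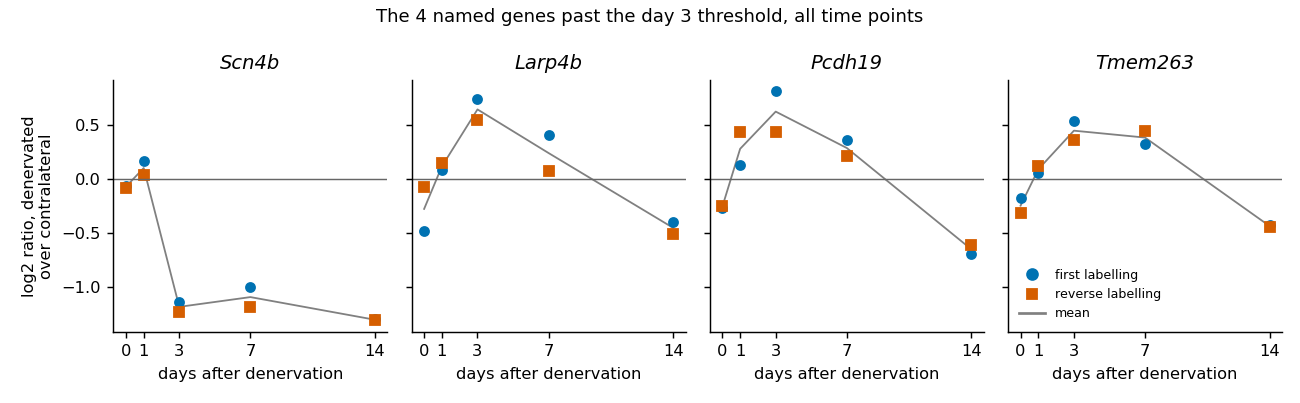
Log2 ratio of denervated over contralateral muscle at time 0 and days 1, 3, 7 and 14 for the 4 named genes that passed the test at day 3, with each array as a point and a line through the means. Scn4b, averaged over its probes, is near 0 at time 0 and day 1 and far below 0 on every array from day 3 on. Larp4b, Pcdh19 and Tmem263 have their highest mean at day 3, which their choice by day 3 values favours, and are below 0 at time 0 and day 14. Tmem263 is nearly as high at day 7 (mean 0.39) as at day 3 (0.45).

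The 15 highest genes of day 3, chosen on their day 3 values alone, were mostly low at time 0 and at day 14. Of these 15, 9 were below 0 on both time 0 arrays and 3 above, with a median of -0.24, whereas 31 of all 89 named genes were below 0 on both. Their median was 0.06 on day 1, then 0.48 on day 3 and 0.29 on day 7. On day 14, 10 of the 15 were below 0 on both arrays, with a median of -0.27, against 36 of the 89. Larp4b gave means of -0.27, 0.12, 0.65, 0.24 and -0.45 over the 5 times in order. Pcdh19 gave -0.25, 0.28, 0.63, 0.29 and -0.65, Gclm -0.36, 0.19, 0.64, 0.15 and -0.61, and Maoa -0.31, 0.15, 0.53, 0.13 and -0.60. Others of the 15 ran differently. Mef2a had a mean of 0.92 on day 7. Gm6225 had a mean of 3.72 on day 7, from arrays at 7.42 and 0.02. Rn28s1 had a mean of 0.79 at time 0, from arrays at 1.48 and 0.09. The means of Gm6225 and Rn28s1 thus rest largely on the first array. That a gene chosen for a high day 3 value is highest then is favoured by the choice, and 0 named genes differed between days 3 and 7.

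Across the 89 named genes, day 3 means correlated with those of time 0 at a Pearson coefficient of -0.29 (Spearman -0.40), of day 1 at 0.18, of day 7 at 0.38 (Spearman 0.50) and of day 14 at -0.14 (Spearman -0.27). Over all 2300 features the coefficients were 0.015 (Spearman -0.25) for time 0, 0.21 for day 1 and 0.25 (Spearman 0.485) for day 7. For day 14 they were 0.07 by both measures, so the negative day 14 values of the named genes did not extend to all features. Each pair of times rests on different arrays, and the points share the printed probes and the normalization of each array. The values are descriptions.

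The 15 lowest genes were spread more evenly about 0 at the other times. The median went from 0.06 (time 0) and -0.12 (day 1) to -0.32 (day 3), -0.28 (day 7) and 0.05 (day 14). At day 14, 3 of the 15 were below 0 on both arrays and 3 above. Scn4b was among those that stayed low, and Bckdk and Zfp948 among those that were high by then.

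Compared with day 1, 1 named gene differed at day 3 (1.04% of all features did), and it was Scn4b, which was lower (0.696% in that direction). Its log2 ratio was 0.16 and 0.04 at day 1, so day 3 minus day 1 was -1.28 (limma adjusted p = 0.0165). With its probes fitted separately, this call was counted as lost, and whether 1 or both probes missed the threshold is not given here. Both probes had lower means at day 3 (-1.28 and -1.08) than at day 1 (0.08 and 0.12). The call held in 6 of 10 fits with 1 array left out.

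Compared with day 7, 0 named genes differed (0.565% of all features did, 13 of 2300, with 0.522% lower at day 3), and 6 named genes and 266 features had an unadjusted p under 0.05 in limma. Scn4b had a mean of -1.09 at day 7, a day 3 minus day 7 value of -0.09 (adjusted p = 0.877). A p above the threshold does not show that days 3 and 7 were alike.

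Compared with day 14, 13 of the 89 named genes differed, with 9 higher and 4 lower at day 3, where 7.52% of all features differed (3.22% higher and 4.30% lower). The higher ones were Nisch, Pcdh19, Gclm, Maoa, Larp4b, Slc25a4, Irf1, Tmem263 and Msi2, and 8 of these 9 were above 0 on both day 3 arrays and below 0 on both day 14 arrays. Pcdh19, for one, stood at 0.81 and 0.44 at day 3 and at -0.69 and -0.61 at day 14, a difference of 1.27 (limma adjusted p = 0.0300). The exception was Nisch, near 0 at day 3 and at -1.53 and -1.27 at day 14, with a difference of 1.37 (adjusted p = 0.0304).

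The 4 genes that were lower at day 3 than at day 14 were Bckdk, Neb, Ddx42 and Zfp948. Bckdk stood at -0.67 and -0.43 at day 3 and at 0.91 and 1.03 at day 14, a difference of -1.52 (limma adjusted p = 0.0275). Zfp948 moved from -0.41 and -0.30 to 0.87 and 0.96, a difference of -1.27 (adjusted p = 0.0231). For both genes the arrays of the 2 days lay on opposite sides of 0. Neb, at 1.02 and 1.47 on day 14, differed by -1.48 (adjusted p = 0.0435) and Ddx42, at 1.08 and 1.07, by -1.27 (adjusted p = 0.0333). Scn4b, at -1.29 and -1.30 on day 14, gave a difference of 0.12 (adjusted p = 0.637).

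These day 14 differences depended on the arrays used. With 1 array left out at a time the 13 genes kept their calls in 1 to 6 of 10 fits, with 6 for Bckdk, Nisch, Pcdh19 and Zfp948 and 1 for Irf1, Maoa and Msi2. With the print blocks centred, Bckdk, Ddx42, Neb, Pcdh19 and Zfp948 kept theirs, and over all features the split of 74 higher and 99 lower became 17 and 115. With the arrays centred on their medians it was 59 and 135. Without the first day 14 array it was 54 and 221, and without the reverse one 78 and 42, so the larger side turned. With the arrays scaled to one median absolute value, all 13 named genes lost their calls.

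**Figure D5:**
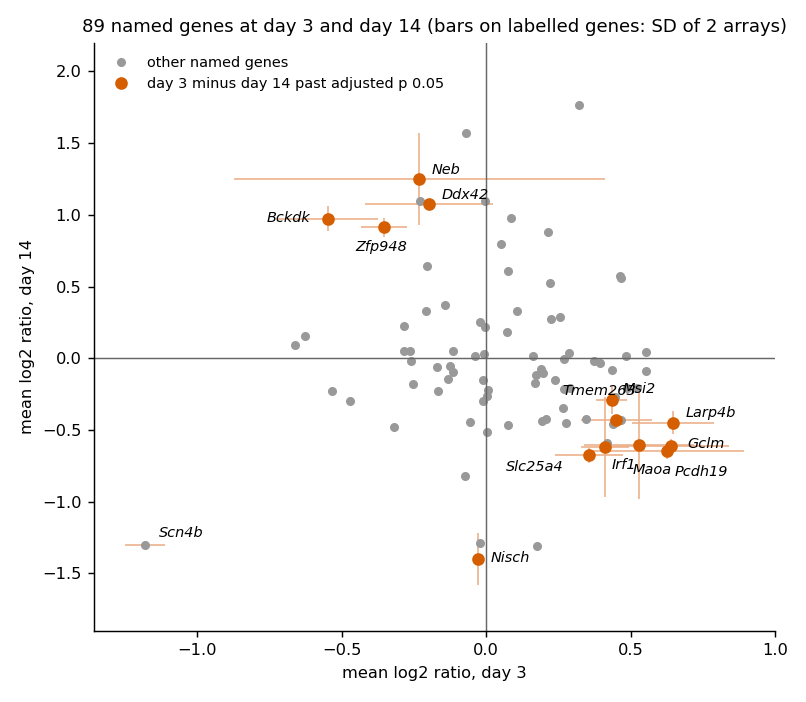
Mean log2 ratio of the 89 named genes at day 3 (x) and day 14 (y), with the 13 genes whose difference passed the limma threshold in orange and the SD of 2 arrays on these and Scn4b. Most of the orange genes lie to the right and below 0, 4 lie at the upper left, and Scn4b is low on both axes.

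Ratios differed between print blocks. Medians of the 16 print blocks ran from -0.19 to 0.36 on the first and from -0.15 to 0.20 on the reverse array. The block with the highest average median (0.18) held 9 named probes, 4 of the 15 highest genes and 0 of the 15 lowest. After each block was centred on its median, all 15 highest and all 15 lowest genes kept their direction on both arrays, with medians of 0.44 and -0.39. The signs of their means were fixed in advance, since average block medians ran only from -0.12 to 0.18. Larp4b was then at 0.58 and 0.35, and Scn4b at -1.19 and -1.13. In that block, the means of Larp4b, Arf6 and Uggt1 went from 0.65, 0.55 and 0.43 to 0.46, 0.37 and 0.25.

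The ends of the day 3 distribution were unnamed probes. The lowest with one sign on both arrays were spot_4682 (-0.01 and -7.96) and spot_4134 (-3.15 and -2.83), and the second passed the test (limma adjusted p = 0.000885) where the first did not (0.194). The highest were spot_3626 (7.69 and 3.75, adjusted p = 0.0419) and spot_4235 (3.65 and 7.35, adjusted p = 0.0115). The widest span of single spots on a day 3 array was 9.31 log2 units for spot_3626 and 7.40 for spot_4235, against 0.34 for spot_4134, so the means of both high probes depend on how 4 discordant spots are summarised. On the first array 683 spots held one value, -0.01, to the last digit (91 spots on the reverse array), and spot_4682 stood at that value there. It was held by 0 spots of the named genes on the day 3 arrays and its meaning is unknown here.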

How the data were processed

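The deposited values are log2 ratios, 1 per spot and array. Per the labels, the authors reverse transcribed 8 µg of total RNA with an oligo-dT primer, hybridised both muscles together, quantified the scans with QuantArray, and used SNOMAD for a global and a lowess normalization before taking log2. The sources used here give neither a background correction nor a spot filter. Signal intensity was not analysed, so signal over background is unknown, and the number of arrays limits the precision.

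Spots were summarised to 2300 features as described above. Of 97 annotated probes 93 had 1 symbol and 4 had several; 2207 had none and are unnamed here. That unnamed spots share the layout of 4 fixed offsets is an inference. Symbols were checked in a mouse RefSeq table (GRCm38.p6), which did not hold the identifiers of 9 named genes. For Scn4b, Trdn and Purb several probes were averaged.

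The test was limma (version 3.58.1, R 4.3.3) with 1 mean per time point over all 10 arrays and 5 residual degrees of freedom, two-sided. Calls had an adjusted p under 0.05 (Benjamini-Hochberg, all 2300 features). Differences between times are contrasts of that fit. Genes were described if they had a single symbol and one sign on both day 3 arrays, in full for the 15 highest and 15 lowest, those past a threshold and members of lists. The members and lists were chosen with earlier results of these data known, and the difference from day 1 was added after seeing the data. Alternatives changed the spot summary, repeated values, spot agreement, centring, scaling, the samples fitted, the labelling block, eBayes, probe averaging and single arrays.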

Additional observations from a re-analysis of the deposited data

Results flagged for a closer look

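A total of 20 results stood out because the ratio of a named gene differed between day 3 and another time point, by a contrast of the limma fit with an adjusted p under 0.05. Scn4b differed from time 0 by -1.11 and from day 1 by -1.28. Day 3 exceeded time 0 by 0.93 for Arf6, 0.92 for Larp4b, 0.88 for Pcdh19, 0.69 for Tmem263 and 0.66 for Msi2.

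Day 3 exceeded day 14 by 1.37 for Nisch, 1.27 for Pcdh19, 1.25 for Gclm, 1.13 for Maoa, 1.10 for Larp4b, 1.03 for Slc25a4, 1.03 for Irf1, 0.88 for Tmem263 and 0.73 for Msi2. The difference was -1.52 for Bckdk, -1.48 for Neb, -1.27 for Ddx42 and -1.27 for Zfp948.

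With the fit restricted to the arrays of the compared days, each of the 20 differences missed the threshold, with adjusted p from 0.132 for Scn4b against day 1 to 0.225 for Neb against day 14. With the arrays scaled to one median absolute value, 18 of the 20 differences lost their calls, among them all 13 against day 14 and that of Scn4b against day 1, and Arf6 and Larp4b against time 0 kept theirs.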

How the results depend on the processing

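Scn4b kept its day 3 call in 19 of 20 alternatives, and 38 of the 45 genes chosen by the rule kept one sign in all alternatives run for them. Of the other 7, Neb, Trdn, Chek1, Psmd1 and Sfpq had opposite signs on the 2 arrays, Parvb was 0.05 with print blocks centred and Rabep1 was 0.75 with the mean of the spots. The 183 features at day 3 became 94 (26 higher, 68 lower) with the arrays scaled to one median absolute value and 10 (7 and 3) with the arrays of the compared days alone. The 4 named calls became 1 with the mean of the spots or with arrays centred, 2 with scaling and 0 with the compared days alone. The 160 differences from time 0 became 61 with the mean of the spots, 282 without repeated spot values, 295 with probes whose spots lay within 2 log2 units, 85 with arrays centred and 0 with the compared days alone. The 24 from day 1 became 13 (8 and 5) with scaling and 0 with the compared days alone. The 13 from day 7 (1 and 12) became 20 (5 and 15) with print blocks centred, 0 with scaling and 5 with the compared days alone. The 173 from day 14 became 281, 286, 4 and 0 without repeated values, with spots within 2 units, with scaling and with the compared days alone. The 157 features of at least 1 in size became 92 with spots within 2 units. Fits on the compared days alone had fewer arrays, and for the other changes the cause was not tested.

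With 1 array left out, the calls ranged from 36 to 166 at day 3, 1 to 3 among named genes, 7 to 142 against time 0, 0 to 26 against day 1, 0 to 53 against day 7 and 19 to 275 against day 14, and the features of at least 1 in size from 146 to 222. Against time 0 the lowest count came without either day 1 array, against day 14 likewise (19), with 20 and 30 without the first and reverse day 3 arrays and 275 (54 higher, 221 lower) without the first day 14 array. Against day 7 it was 53 without the reverse day 7 array and 0 without either day 1 array, and against day 1 it was 0 without the reverse day 1 array.

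Deviations of same-labelled arrays correlated at 0.03 to 0.42 between time points, all above 0. A labelling effect shared by arrays may be present, but what these correlations stem from was not tested. The lowest correlation was between time 0 and day 3. The main fit held no term for labelling, and the named calls depended on that choice. With labelling as a replicate block, 137 features and 2 named genes passed at day 3 (Scn4b and Gnas, 0 higher and 2 lower), so Larp4b, Pcdh19 and Tmem263 lost their calls, and 85 features passed against time 0. The arrays alone set the depth here, since intensities were not used.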
